A study of Mus musculus with 4 samples.

Results

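The SNPs described here lie in the 3' untranslated regions (3'UTRs) of autosomal genes, where the C57BL/6J (B) and DBA/2J (D) mouse strains carry different bases, and their reads were counted separately for the B and the D allele in F1 animals. They are the rows that the authors annotated as 3'UTR and placed in an exon on chromosomes 1 to 19, with a different base listed for B and D. This gave 17821 SNPs at 17717 positions in 4225 genes, of 50905 exonic autosomal SNPs in 7930 genes. A SNP listed for more than 1 gene was kept for each gene. Coding SNPs (synonymous, non-synonymous, stop gained or lost) served as the measure to compare with, and 3118 genes had both a 3'UTR and a coding SNP.

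RNA came from the gonadal fat pad of F1 mice on a chow diet, from both directions of the cross (BxD and DxB, with the strain of the mother first) and both sexes. Each of the 4 groups was sequenced as 1 pool of RNA, from 3 animals for BxD female, BxD male and DxB male and from 2 animals for DxB female. The age is 8 weeks in the labels and differs in the study's methods, so no result here rests on it. An F1 animal carries both alleles of each autosomal SNP, so the B and D reads of a pool come from the same cells and the same library. The 4 pools stood in as replicates for the comparison of alleles. They differ in sex and cross direction, so p-values measure the spread between such pools, not between animals of 1 group. The main fits do not pair the B and D libraries of a pool. Their standard errors and p-values therefore hold the spread of a gene's reads between pools as well as that of its allele ratio.

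Labels and file names gave different crosses and sexes for 2 samples, which are called here the library labelled DxB female and the library labelled BxD male. Exonic reads on the X chromosome came from D in 31.7% (BxD female), 0.817% (labelled DxB female), 30.6% (labelled BxD male) and 61.6% (DxB male) of cases. A female of either cross has an X from each strain, a BxD male has only the X of B and a DxB male only that of D. The X reads of the library labelled DxB female (0.817% D) and of the library labelled BxD male (30.6%, near the 31.7% of BxD female) therefore go against their labels and match the file names. The DxB male pool, at 61.6% (4007 B and 6416 D reads), lay well below what an X of D alone gives, and the cause was not tested. Comparisons of B with D do not depend on the 2 labels in doubt, whereas comparisons of sexes and parents do. The pools held 4219333 to 5569347 allele specific reads over all listed SNPs. Of the adipocyte markers, 2 of 5 had reads in exonic SNPs (161072 to 251458 per pool), against 9234 to 14717 reads for markers of fibroblasts and preadipocytes (2 of 4), 962 to 1819 for macrophages (1 of 5) and 236 to 378 for endothelium (2 of 4). Markers of epithelium had 0 to 66 reads (1 of 3), those of lymphocytes 0 to 1 (1 of 3), and the mesothelial markers had no read at any of the SNPs used (0 of 3). Markers without a SNP between the strains cannot be seen in such data, and the tissue is a mixture of cell types whose shares and RNA content per cell cannot be told apart.

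The 3'UTR is the stretch of an mRNA between the stop codon and the poly(A) tail. It carries the binding sites of microRNAs and RNA-binding proteins, which set how long the mRNA lasts and how often it is translated, and the hexamer (AATAAA or ATTAAA) that tells the cleavage machinery where to end the transcript. Many genes have several such signals and can end their mRNA at different points, so that 2 parts of a 3'UTR need not be present in the same molecules, and coding reads and 3'UTR reads of a gene may sample different sets of transcripts.

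SNPs in the polyadenylation hexamer are shown first because here the base change can be read directly. Of the 7115 3'UTR SNPs of at least 100 reads, 6733 were scanned. The rest were left out, so the motif counts given here and below cover the scanned SNPs only. The windows of 29 bases around the scanned SNPs were read from NCBIM37 (mm9) on the strand of the gene. In these SNPs the strain test of single SNPs called 1427 (21.2% of those tested, against 16.6% of all 3'UTR SNPs and 16.8% of all exonic SNPs of at least 10 reads, 534 with D higher and 893 with D lower). With the pool as a block, which takes out what the B and D libraries of a pool share, 2606 of the scanned SNPs were called (38.7%). The block called 27.6% of all 3'UTR SNPs and 27.9% of all exonic SNPs. AATAAA stood in 0.891% of the windows and ATTAAA in 0.564%, anywhere in the window and on either allele. At 25 SNPs a single base made or broke the hexamer, which was on the B allele at 10 and on the D allele at 15. The allele with the hexamer was called lower at 8 of them, 4 with the hexamer on B and 4 with it on D, and higher at 1, or lower at 13 and higher at 2 with the block. The median log2 ratio of the allele with the hexamer to the other allele was -0.49, and -0.39 over the 23 SNPs with at least 1% of reads from each allele, of which 6 were called lower and 1 higher. The following 5 were past the threshold with reads from both alleles and the hexamer allele lower (written 5' to 3' on the gene's strand, with the hexamer in capitals on the allele that has it and the changed base alone in capitals on the other). Another listed SNP lay within 50 bp in Ipo9 and Tnks and none in the others. They were chosen after their values were seen, except Glul and Tapt1, which are among the 6 with most reads.
Ipo9, chr1:137279165-137279193, B: gtactgtgtacctcATTAAAagtactgag
Ipo9, D: gtactgtgtacctcGttaaaagtactgag
Tapt1, chr5:44567482-44567510, B: cgggcccagtgacAATAAAaggcacagag
Tapt1, D: cgggcccagtgacaGtaaaaggcacagag
H2-DMb1, chr17:34296989-34297017, B: gtccccttcctgaAATAAAtattagtagt
H2-DMb1, D: gtccccttcctgaaGtaaatattagtagt
Glul, chr1:155756582-155756610, B: ttttttcttttataGtaaacacaccccca
Glul, D: ttttttcttttatAATAAAcacaccccca
Tnks, chr8:35893358-35893386, B: ctgagtactgaATTAAAtgcattgctctg
Tnks, D: ctgagtactgaattGaatgcattgctctg

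Ipo9, which encodes an importin, has the hexamer on the B allele, 290 bases before the annotated end. Its B and D reads were 8 and 35 in BxD female, 11 and 31 in the library labelled DxB female, 11 and 26 in the library labelled BxD male and 8 and 19 in DxB male, an order of pools kept below. D was higher in all 4 pools, with a log2 D to B ratio of 1.62 ± 0.26 (SE, 4 pools; edgeR quasi-likelihood test, adjusted p = 0.000208). The share of the hexamer allele was 25.5% at this SNP, 48.0% at the 17 counted SNPs on its stop codon side, 42.9% at the 2 on its far side and 49.4% in coding sequence. The shares on both sides were closer to equal than at the hexamer itself, and this difference was not tested.

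Tapt1, a membrane protein gene, has the hexamer on B, and its reads were 81 and 125, 80 and 102, 50 and 83, and 50 and 76 for B and D. D was higher in each pool, by a log2 ratio of 0.66 ± 0.19 (adjusted p = 0.0199). No other 3'UTR SNP and no coding SNP of Tapt1 was counted, so the difference may lie in the whole gene or at this site, which cannot be told apart.

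H2-DMb1 encodes a chain of the H2-DM complex that loads peptides onto class II molecules. Its hexamer is on B, with B and D reads of 21 and 31, 10 and 43, 13 and 33, and 11 and 46. D was higher in each pool, with a log2 ratio of 1.61 ± 0.29 (adjusted p = 0.000524). The hexamer allele had 26.4% of reads there and 59.2% of the 1817 coding reads, while the only other 3'UTR SNP, 71 bases nearer the stop codon, had 241 B reads and 0 D reads. The coding share sums 9 SNPs of 0% to 70% D, of which 3 had under 1% of reads from an allele.

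Glul, the gene of glutamine synthetase, has the hexamer on D. Its reads were 268 and 71, 251 and 66, 152 and 49, and 100 and 20 for B and D, and its log2 D to B ratio was -1.80 ± 0.27 (adjusted p = 0.000109). Here D had the smaller share in each part of the gene, though not an even one. It had 21.1% of reads at the hexamer, 22.1% at 7 SNPs nearer the stop codon, 39.9% at 1 farther SNP (4463 reads) and 13.2% in coding sequence. The 3'UTR of Glul had relatively more D than its coding sequence, by 1.02 on the log2 scale (adjusted p = 0.00179, interaction of allele and SNP class). Tnks, which encodes tankyrase, has the hexamer on B with reads of 19 and 31, 24 and 25, 11 and 32, and 15 and 23, which gave 0.78 ± 0.26 (adjusted p = 0.0464). Its hexamer allele had 38.3% of reads at the site and 51.6% in coding sequence.

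At 2 further SNPs called with the hexamer allele lower there was no read of that allele. For 4632428N05Rik this was 0 of 685 reads, which allows a share of up to 0.438%, and for Trim25 it was 0 of 172, which allows up to 1.74% (3 counts of the total, covering counting error only). Trim25 D reads made up 36.2% at 4 SNPs on the stop codon side, 50% at 6 SNPs on the far side and 47.9% in coding sequence, so that at this single position D reads were absent in a gene whose D allele was present around it. Whether the strains differ at such a position cannot be told from read counts. The 1 call with the hexamer allele higher, 6330403K07Rik, had 97.6% D reads at the site and between 97.4% and 98.4% D on either side and in coding sequence. The remaining SNPs among the 6 with most reads, in Arhgef15 (log2 D to B -0.49 ± 0.17, adjusted p = 0.0587, or 0.00379 with the block, hexamer on D), Rbl2 (0.31 ± 0.20, adjusted p = 0.370, hexamer on B) and Cpsf3l (-0.06 ± 0.22, adjusted p = 0.911, hexamer on B), did not pass without the block.

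**Figure D1:**
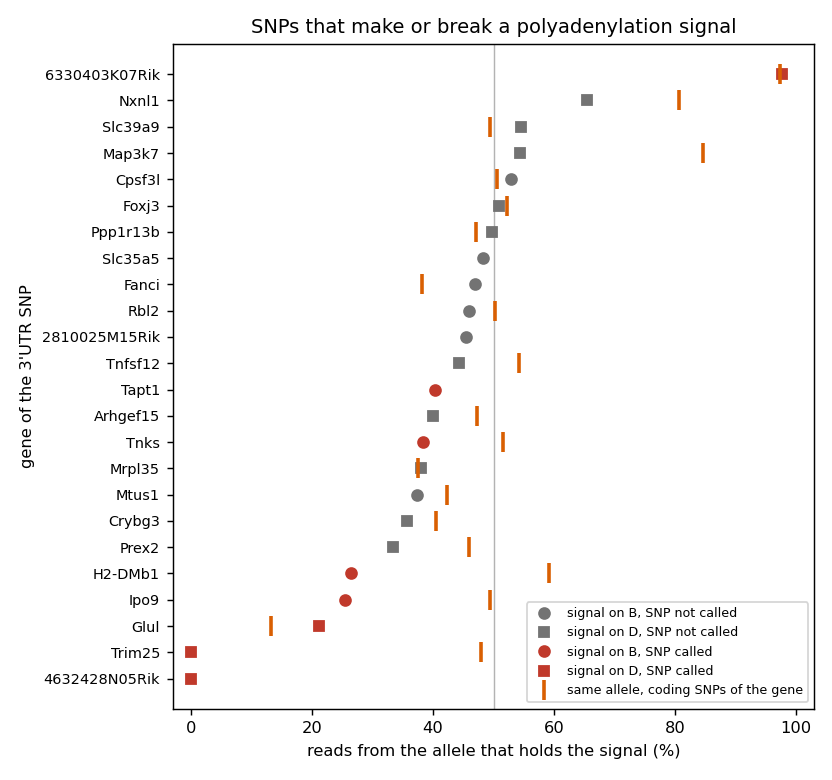
Share of reads from the allele that holds the polyadenylation hexamer at 24 of the 25 3'UTR SNPs. Circles have the hexamer on B and squares on D, red symbols passed the test of single SNPs, and orange ticks give the share of the same allele at the coding SNPs of the gene where there are any; of the 8 red symbols, 7 sit below 50% and 6330403K07Rik sits at 97.6%.

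The other motifs gave smaller numbers. The AU-rich heptamer TATTTAT, a mark of short-lived mRNAs, was made or broken at 3 SNPs, in Gtpbp1 (0.69 ± 0.27, adjusted p = 0.0922), Thrb (0.53 ± 0.35, adjusted p = 0.369) and Elmod2 (-0.19 ± 0.32, adjusted p = 0.775), as log2 D to B. The Pumilio site TGTANATA was made or broken at 3 SNPs, in Rnf220 (-0.12 ± 0.19, adjusted p = 0.754), Arpp19 (-0.02 ± 0.28, adjusted p = 0.979) and Edem3 (-0.55 ± 0.28, adjusted p = 0.231). None of these 6 passed, and with the block Gtpbp1 did (adjusted p = 0.00513). Each motif stood in 0.282% of the windows.

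Seed matches were searched for 16 miRNAs whose mature sequence was taken from RefSeq (GRCm38.p6), as the 7 letters complementary to bases 2 to 8. At 106 SNPs an allele gained or lost such a match. The allele with the match was called higher at 11 and lower at 14 (25 SNPs, or 23.6%, near the 21.2% of all SNPs scanned), or at 21 and 24 with the block (42.5%, against 38.7%), with a median log2 ratio of the allele with the match to the other of -0.07. The miRNAs whose matches fell on the SNPs of most reads are shown with the seed in capitals. The letters searched for miR-15a (TGCTGCT) and miR-103 (ATGCTGC) overlap, so 1 sequence can match both.
miR-27b-3p: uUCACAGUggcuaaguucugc
miR-15a-5p: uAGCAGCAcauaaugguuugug
miR-22-3p: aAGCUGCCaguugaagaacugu
miR-125b-5p: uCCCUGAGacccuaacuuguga
miR-24-3p: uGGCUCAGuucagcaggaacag

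Of the 6 SNPs with most reads, the one in Lpin1 passed. Lpin1 encodes lipin, a phosphatidate phosphatase of triglyceride synthesis, and its D allele has the miR-125b match (B ttcctcatagctcaAggctgggctattta, D ttcctcatagCTCAGGGctgggctattta, chr12:16544564-16544592). Its B and D reads were 491 and 203, 520 and 250, 819 and 363, and 463 and 235, which gave a log2 D to B ratio of -1.01 ± 0.23 (adjusted p = 0.00510). The coding SNPs of Lpin1 gave -0.91 (adjusted p = 0.00440), so D was lower there as well. The other 5 did not pass, although Nedd4 (adjusted p = 0.000236) and Capns1 (adjusted p = 0.000454) did with the block. They were a miR-27b match in Sparc (0.01 ± 0.24) and in Nedd4 (0.24 ± 0.17), a miR-15a match in Dgat2 (0.02 ± 0.34), a miR-22 match in Capns1 (-0.25 ± 0.18) and a miR-24 match in P4hb (0.16 ± 0.17). A match of letters is not a site shown to be used.

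Over all 3'UTR SNPs the median depth was 61 reads summed over the pools, with quartiles of 12 and 213 and a highest value of 280486. At least 1 read was seen at 16245 (BxD female), 16074 (labelled DxB female), 15828 (labelled BxD male) and 15577 (DxB male) SNPs. At the 12196 SNPs of 20 reads or more, the D share had a median of 47.9% and quartiles of 40.3% and 54.5%. The 17800 coding SNPs of that depth had the same median of 47.9% with quartiles of 41.0% and 53.8%. Under 1% of reads came from D at 398 of the 3'UTR SNPs (3.26%) and under 1% from B at 18 (0.148%), against 849 (4.77%) and 48 (0.270%) of the coding SNPs.

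The 3'UTR SNPs were also described by their neighbours and by the kind of base change. Another listed SNP lay within 50 bp, the length of a read, for 47.3% of 3'UTR and 37.2% of coding SNPs, and 71.1% against 77.4% were transitions. The D share moved with this spacing. Its median was 48.9% at the 6460 3'UTR SNPs of 20 reads with no other SNP within 50 bp, 47.5% with 1 (3397 SNPs), 47.2% with 2 (1533) and 41.1% with 3 or more (806). The lower quartile went from 42.3% to 29.4% between the first and last of these. Coding SNPs showed the same order, from 48.4% with no neighbour to 37.9% with 3 or more. Reads were aligned by the authors with at most 3 mismatches, and the part of alignment in these values was not tested.

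Along the 3'UTR, depth was lower toward the end of the transcript while the typical allele share was nearly flat. In GENCODE M1, 16441 of the SNPs (92.3%) fell in an annotated 3'UTR of their own gene, at a median of 742 bases after the stop codon and 914 before the end, in 3'UTRs with a median length of 1390.5 bases. From the first to the last of 5 equal stretches of the 3'UTR the median reads per SNP were 77, 78, 63, 58 and 41, and the median D share was 48.2%, 47.8%, 48.1%, 47.8% and 47.4%. The share of SNPs with under 1% of D reads was 3.13%, 2.52%, 3.52%, 3.73% and 4.35%. Ratios of summed reads went from 1.21 to 1.25 B reads per D read in the first stretch to 1.01 to 1.03 in the last. Without the 5 genes with most 3'UTR reads they were 1.16 to 1.20 in the first and 1.07 to 1.10 in the last. In all, 417 SNPs (2.34%) in 180 genes also lay in an exon of a gene on the other strand, and since the library did not keep the strand, reads of the 2 genes cannot be told apart there.

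SNPs of the same 3'UTR differed more from each other than the pools did. In 720 genes with at least 3 counted 3'UTR SNPs of 100 reads (median of 4 SNPs), the SD of the D share between SNPs had a median of 5.78 percentage points, and the SD between pools of the gene's summed share had a median of 2.62. The SD between SNPs was the larger in 575 genes (79.9%). Single SNPs have fewer reads than a gene's sum, and the counting error that this adds to the SD between SNPs was not taken out. Beside the pools, a gene's ratio can depend on which of its SNPs are read.

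The 5 genes with most 3'UTR reads show this. Car3, the abundant carbonic anhydrase of fat and muscle, gave 1096653 of the 3'UTR reads used, with D shares of 54.9%, 56.3%, 55.6% and 56.8% in the 4 pools. Its log2 D to B ratio was 0.44 ± 0.19 and did not pass (adjusted p = 0.154), although D was higher in each pool, and it passed with the pool as a block (adjusted p = 6.87e-68) and without BxD female (adjusted p = 0.0313). Its 9 SNPs ranged from 34.5% to 61.2% D, and 3 passed the SNP test, 2 with D higher and 1 with D lower. The lone low SNP, 201 bases after the stop codon, had 1356 reads against 14547 to 280486 for the other 8.

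Sparc, a collagen-binding matrix protein, had a 3'UTR log2 ratio of -0.30 ± 0.22 (adjusted p = 0.470). Of its 5 SNPs the one 349 bases after the stop codon had 27.1% D (log2 -1.33 ± 0.22, adjusted p = 0.000217), and the others had 40.1% to 51.7% and did not pass. Lpl, the lipoprotein lipase that releases fatty acids from circulating triglyceride, had 0.26 ± 0.16 (adjusted p = 0.361) with 12 SNPs of 100 reads from 0.348% to 64.5% D, of which 3 passed. The SNP at 0.348%, with 575 reads, lay between SNPs with 50.2% and 54.6%. H2-K1, a class I histocompatibility gene that is highly polymorphic and has close relatives in the genome, had -1.02 ± 0.17 (adjusted p = 0.000501), and 8 of its 9 SNPs passed with D lower, from 10.3% to 37.2% D. Its ninth SNP had 50.6%. Capns1, the small calpain subunit, had -0.20 ± 0.14 (adjusted p = 0.439) and none of its 6 SNPs passed. With the pool as a block Sparc (adjusted p = 4.33e-26), Lpl (adjusted p = 1.33e-18) and Capns1 (adjusted p = 4.76e-07) passed as genes, and so did 7 of the SNPs of Car3, 3 of Sparc, 9 of Lpl, 8 of H2-K1 and 5 of Capns1.

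**Figure D2:**
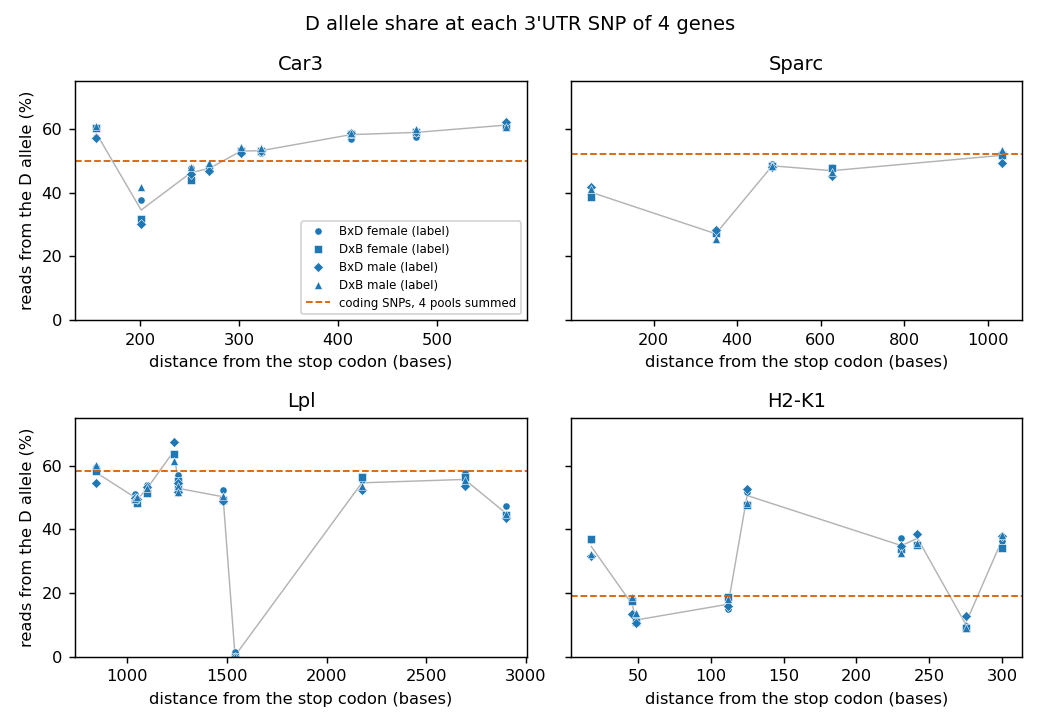
Share of reads from D at each 3'UTR SNP of Car3, Sparc, Lpl and H2-K1, against the distance from the stop codon in bases. Each symbol is 1 of the 4 pools by its label. The grey line joins the shares of the summed pools and the dashed line is the share at the coding SNPs. The SNPs of Car3 range from 34.5% to 61.2%, with pools from 30.1% to 41.8% at the lowest and 60.5% to 62.2% at the highest.

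Which genes had more of an allele in the 3'UTR was tested over 4220 genes with reads. At an adjusted p of 0.05, 572 genes (13.6% of those tested) were called, 175 with D higher (4.15%) and 397 with D lower (9.41%). With 1 library size per pool for both alleles, which moved the median of all genes by -0.10 on the log2 scale, the split was 111 and 433. With the pool as a block 1189 genes were called (28.2%, 515 with D higher and 674 with D lower), and without SNPs of under 1% of reads from an allele 340. Coding SNPs gave 955 of 6166 genes (15.5%), 286 with D higher and 669 with D lower, and 1747 with the block (28.3%).

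The strongest 3'UTR ratios with at least 10 reads and 1% of reads from the weaker allele, out of 357 genes that met this with the same direction in all pools, were the following. Ctdsp1, a phosphatase that acts on RNA polymerase II, had 7350 B and 93 D reads, a log2 ratio of -6.16 ± 0.26 (adjusted p = 2.07e-10), with 1.01%, 0.899%, 1.01% and 2.37% D in the pools. Cdsn, the corneodesmosin gene of the skin, had -5.83 ± 0.33, Serpina3c, a serine protease inhibitor, -5.15 ± 0.28, Cacna1e, a calcium channel subunit, -4.68 ± 0.31 over 41 SNPs, Hdgf, a growth factor gene, -4.56 ± 0.30 and Vps52, of the vesicle tethering machinery, -4.43 ± 0.23. On the D side, 6330403K07Rik had 5.68 ± 0.33, Ear11, an eosinophil-associated ribonuclease, 4.72 ± 0.30, Eif3h, a translation initiation factor subunit, 3.82 ± 0.26, 2610109H07Rik 3.53 ± 0.31, Rufy4 2.77 ± 0.36 and Hddc3 2.68 ± 0.21. Ear11 belongs to a family of near copies, and reads may be split between them. The coding SNPs of Ctdsp1 (-4.58), Cdsn (-5.69), Serpina3c (-1.04), Cacna1e (-4.34), Vps52 (-0.42), 6330403K07Rik (5.16), Ear11 (5.61), Rufy4 (2.97) and Hddc3 (2.35) gave log2 ratios of the same sign and passed, and those of Hdgf (-0.12, adjusted p = 0.687) did not. Of Eif3h no coding SNP was counted, and 2610109H07Rik had 47 of 47 coding reads from D.

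How far the 3'UTR of a gene followed its coding sequence was then read from genes with at least 20 reads in each, 2418 genes. Across these genes the log2 D to B ratios of the 2 classes had a Pearson r of 0.572 and a Spearman rho of 0.424, and the median absolute difference was 0.32. The difference was within 0.5 in 1597 genes (66.0%) and above 1 in 338 (14%). Without SNPs of under 1% of reads from an allele, r was 0.474 and rho 0.400 over 2297 genes, with 1610 (70.1%) within 0.5 and 220 (9.58%) above 1. Genes are not independent replicates, both ratios come from the same libraries, and low counts widen the differences, so these are descriptions. Among the 2418 genes the strain test called 374 in the 3'UTR and 385 in coding sequence, with 167 in both (44.7% of the 3'UTR calls and 43.4% of the coding calls), 159 in the same direction. With the block the calls were 853, 839 and 459, with 390 of the last in the same direction.

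**Figure D3:**
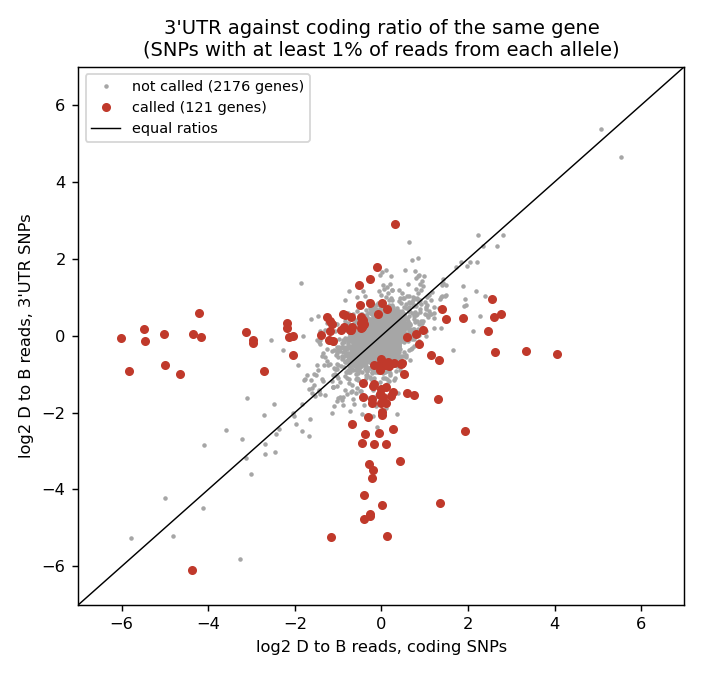
Log2 D to B ratio of the 3'UTR SNPs against that of the coding SNPs for 2297 genes, from SNPs with at least 1% of reads from each allele. The line marks equal ratios and red points are the 121 genes whose difference passed the test, which lie on both sides of the line, many of them near zero on one axis and far from zero on the other.

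The difference itself was tested as the interaction of allele and SNP class. It passed in 213 genes (8.81%), 102 with relatively more D in the 3'UTR (4.22%) and 111 with less (4.59%), and in 472 with the pool as a block (19.5%). Of the 213 genes, 88 (41.3%) had a SNP of at least 20 reads seen from a single allele (under 1% from the other), against 222 of the 2418 tested (9.18%). After such SNPs were removed, 121 of 2297 genes passed (5.27%), 51 with more D in the 3'UTR (2.22%) and 70 with less (3.05%), and 356 with the block (15.5%). The count without the block was 80 without BxD female, 73 without the library labelled DxB female, 83 without the library labelled BxD male and 75 without DxB male. Both fits called 116 genes, in 1 of them (Zfp106) with opposite sign. In 67 of the 121 genes (55.4%) a class rested on a single SNP, against 935 of 2297 (40.7%). Genes with a 3'UTR SNP inside an exon of another gene on the other strand were 17 of the 213 (7.98%) against 120 of 2418 (4.96%), and 11 of the 121 (9.09%) against 112 of 2297 (4.88%). What these shares contribute to the calls was not tested.

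Smad5, a transcription factor gene of the BMP pathway, had the largest positive difference of the 109 genes called in both fits with the same sign in all pools and at least 50 reads a class. Its 10 counted 3'UTR SNPs (chr13:56838910-56843333) gave 53.5%, 47.8%, 53.3% and 50.1% D in the 4 pools, and its 14 coding SNPs gave 0.180%, 0.0940%, 0.120% and 0.141%. The coding reads were 3718 from B and 5 from D, and the share of D was 0.134% (exact 95% interval 0.0436% to 0.313%). The 3'UTR exceeded coding by 9.45 ± 0.26 on the log2 scale (adjusted p = 1.18e-14). After the removal of single-allele SNPs the difference was 5.62 ± 0.44 (adjusted p = 1.14e-07). Of its coding SNPs 13 of 14 were single-allele, and the last had 1.77% D. Of the 14, only that SNP stayed in the second fit, so the size there rests on very few D reads. Along the 3'UTR, the 3 SNPs nearest the stop codon, at 74, 226 and 269 bases, had 0 D reads among 23, 2 and 43, and the 7 from base 384 on had 46.2% to 61.1%. The B-only stretch thus ran from the coding exons into the start of the 3'UTR and ended between 269 and 384 bases after the stop codon.

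The other 7 genes named for more D in the 3'UTR had very few D reads in coding sequence, so their shares are given in place of fold changes. Znhit3 had 1 D read of 209 coding reads (0.478%, exact interval 0.0121% to 2.64%) and 29.9% to 39.7% D in the 3'UTR pools, where its 2 counted SNPs had 52.7% and 6.03%. The gene 2400001E08Rik had 1 of 97 (1.03%, 0.0261% to 5.61%) and 46.4% to 52.4%, Slain2, a microtubule-binding protein gene, 2 of 111 (1.80%, 0.219% to 6.36%) and 44.0% to 51.6%, and Nr1d2, the clock repressor REV-ERB beta, 2 of 53 (3.77%, 0.460% to 13.0%) and 54.5% to 70.6%. Gnal1 had 2 of 144 (1.39%, 0.169% to 4.93%) and 11.1% to 42.1%, and BC057170 12 of 414 (2.90%, 1.51% to 5.01%) and 25% to 41.2%. The gene 5730596K20Rik had 29 of 627 coding reads from D, with 6.59%, 3.49%, 5.17% and 3.18% in the pools against 52.0%, 48.9%, 51.6% and 51.7% in the 3'UTR. Its difference was 4.42 ± 0.33 (adjusted p = 1.04e-08). In these 7 genes the 3'UTR share lay above the coding share in each pool, as the rule that named them required.

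The 8 genes named for less D in the 3'UTR follow. Hdgf had 5.81%, 3.33%, 2.82% and 1.92% D at its 3'UTR SNP, 190 bases after the stop codon, and 40.8%, 46.2%, 46.7% and 50.6% at its coding SNP (difference -4.43 ± 0.31, adjusted p = 3.91e-09). Smarce1, a subunit of the SWI/SNF chromatin remodelling complex, had 48.3%, 40.0%, 37.9% and 35.6% D in the 3'UTR and 92.6%, 93.6%, 96.3% and 95.7% in coding sequence (-4.57 ± 0.32, adjusted p = 5.32e-09). Its 3'UTR share sums 2 SNPs of 29.4% and 59.0% D (far against near the stop codon 1.80, adjusted p = 0.0142), both below the coding share, which was lopsided toward D. Serpina3c had 2.54%, 1.12%, 3.52% and 3.11% in the 3'UTR and 28.6%, 30.8%, 30.8% and 32.9% in coding (-4.11 ± 0.39, adjusted p = 2.38e-07), with D lower in both. The 3'UTR share is that of 1 SNP, and the coding share sums 6 SNPs of 1.11% to 78.3% D. Serpina3 genes form a cluster of near copies, so its reads are uncertain.

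Zfp106, a zinc finger gene, had 0 D reads of 1092 at 7 3'UTR SNPs, which allows a share of up to 0.275%, and 55.3% D at its coding SNP. A further 3'UTR SNP that was set aside for lying within 18 bp of another had 88.5% D in 139 reads, and when the 7 SNPs were removed the difference changed sign to 2.65 ± 0.51 (adjusted p = 0.00288). Vps52 had 4.07% D in the 3'UTR and 40.7% in coding, with 5 of 6 3'UTR SNPs from a single allele, and its difference went from -4.00 ± 0.24 to -1.71 ± 0.21 when these were removed. Atoh8, a transcription factor gene, had 8 D reads of 240 (3.33%, 1.45% to 6.46%) against 43.1% in coding, and Dusp10, a phosphatase of stress kinases, 1 of 56 (1.79%, 0.0452% to 9.55%) against 52.1%. Eif2c2, which encodes Argonaute 2, the protein that carries miRNAs to 3'UTRs, had 8 D reads of 55 (14.5%, 6.5% to 26.7%) against 53 of 66 in coding (80.3%), a difference of -4.48 ± 0.93 (adjusted p = 0.00285). Its 3'UTR share moved from 0% in BxD female and in the library labelled BxD male to 30% in DxB male.

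**Figure D4:**
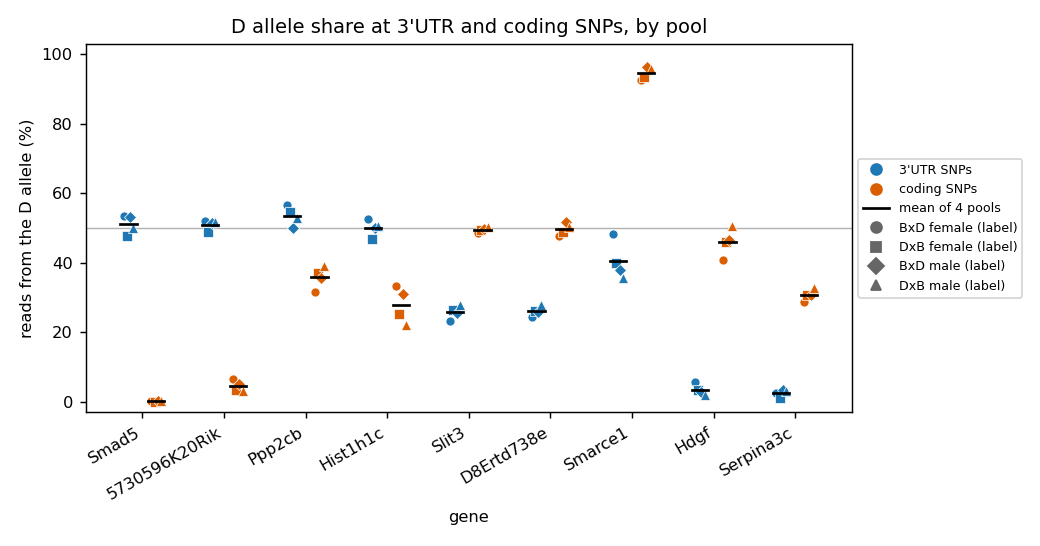
Share of reads from D at the 3'UTR SNPs (blue) and coding SNPs (orange) of 9 genes described in the text. Each symbol is 1 of the 4 pools by its label and the bar is their mean. The genes were named for differences between the classes, so the gaps seen are no separate result. Smad5 had 47.8% to 53.5% in the 3'UTR and at most 0.180% in coding sequence.

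A stricter description asked for genes with at least 2 well-read SNPs in each class whose 3'UTR SNPs all lay on the same side of all coding SNPs. Of 1112 genes that could show this, 46 passed the test without single-allele SNPs (4.14%), 114 were separated in this way and 16 were both, 11 with less D in the 3'UTR and 5 with more. With the block 193 of the 1112 passed (17.4%) and 48 of the 114. These genes were chosen after their values were seen, and the separation and the test use the same reads. In Slit3, a secreted guidance protein, the 3'UTR had 23.3%, 26.5%, 25.6% and 28.0% D at 2 SNPs 23 bases apart, and the 7 coding SNPs summed to 48.7%, 49.5%, 49.6% and 50.3%. Its difference was -1.50 ± 0.16 (adjusted p = 4.49e-06). D8Ertd738e had -1.47 ± 0.21 (adjusted p = 0.000187) and Mpg, a DNA glycosylase of base excision repair, -1.79 ± 0.29 (adjusted p = 0.000571). Both counted 3'UTR SNPs of Mpg lie inside an exon of a gene on the other strand, whose reads cannot be told from its own. Tcf4, a transcription factor gene, had -3.46 ± 0.33 (adjusted p = 1.54e-06). The 2 3'UTR SNPs of Tcf4 had 1.85% and 32.6% D, with 18 D reads in all (far against near 4.52, adjusted p = 0.000918). Those of D8Ertd738e had 16.2% and 30.9% D (far against near -1.17, adjusted p = 0.0191). Slit3, D8Ertd738e, Mpg, Tcf4 and Smarce1 passed under every alternative that gave them a value, and 10 of the 16 lost the call under at least 1. Removal of SNPs with another listed SNP within 50 bp gave no value for Slit3 and D8Ertd738e. The 2 3'UTR SNPs of Slit3 and the 2 coding SNPs of D8Ertd738e lie that close, so 1 read can count at both. The same holds for the 2 SNPs of at least 1 class in Pdlim1, Lgals3bp, Ppp2cb and Creg1.

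Among those 10, Hist1h1c, a linker histone gene, had 52.5%, 47.0%, 50% and 50.7% D in the 3'UTR and 33.3%, 25.4%, 30.9% and 22.2% in coding (1.42 ± 0.39, adjusted p = 0.0439). Ppp2cb, a catalytic subunit of protein phosphatase 2A, had 56.6%, 54.5%, 50% and 53.0% against 31.7%, 37.2%, 35.5% and 39.1% (1.07 ± 0.26, adjusted p = 0.0163), with 1 of its 2 3'UTR SNPs inside an exon of a gene on the other strand. Tardbp, which encodes the RNA-binding protein TDP-43, had 0.67 ± 0.18 (adjusted p = 0.0379) over 7 3'UTR SNPs of 48.9% to 68.8% D and 3 coding SNPs of 33.9% to 47.5%, with 4 of the 7 inside an exon of a gene on the other strand. Mfn1, a mitochondrial fusion protein, had 0.65 ± 0.18 (adjusted p = 0.0464) and Lgals3bp 0.56 ± 0.16 (adjusted p = 0.0444). The rest, 9130008F23Rik (-2.34), Pdlim1 (-1.62), Pdia3 (-0.86), Creg1 (-0.74) and Coro1c (-0.69), had less D in the 3'UTR. The Coro1c SNP with most reads lies inside an exon of a gene on the other strand. The 3'UTR SNPs ran from 1.30% to 42.8% D in Coro1c and from 23.6% to 42.3% in Pdia3.

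Of the 167 genes called in both classes, 8 had D higher in one and lower in the other, against 69 of 459 with the block. The 8 are named because they are so few. Eif4ebp1, the translation repressor 4E-BP1, had 56.2%, 60.7%, 59.1% and 61.1% D in the 3'UTR (log2 0.65 ± 0.13, adjusted p = 0.00198) and 35.6%, 36.4%, 36.8% and 34.2% at its coding SNP (-0.73 ± 0.17, adjusted p = 0.00863). Its difference between the classes was 1.39 ± 0.21 (adjusted p = 0.000127). Its 2 3'UTR SNPs had 59.9% and 37.6% D, and the second, with fewer reads, was close to coding (far against near -1.30, adjusted p = 0.0558, or 0.00208 with the block). Hjurp, a histone chaperone of the centromere, had 24.2% D in the 3'UTR and 71.1% in coding (-2.95 ± 0.29), but its 3'UTR SNPs had 7.83% and 70.6%. Btbd10 had 26.1% and 60.7% (-2.10 ± 0.43). For Acaca, the acetyl-CoA carboxylase of fatty acid synthesis, the 3'UTR had 62.0% D in 3032 reads while coding sequence had 2 D reads of 30 (6.67%, exact interval 0.818% to 22.1%), and 5 of its 8 3'UTR SNPs were single-allele. Acaca, Ssbp2 and Thrap3 could not be fitted without single-allele SNPs, and the differences of Fam171a2 (adjusted p = 0.707) and Rap1gds1 (adjusted p = 0.480) did not pass without them.

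Within the 3'UTR, SNPs far from the stop codon were compared with those near it, split at the midpoint of the counted SNPs. Of 1685 genes 129 passed (7.66%), 64 with more D far from the stop codon and 65 with less, and 302 with the block (17.9%). Of the 129, 44 (34.1%) had a single-allele SNP of 20 reads, against 110 of 1685 (6.53%). The 4 genes with the largest change all had a stretch without a D read. Tpm4, a tropomyosin, had 1383 B and 1452 D reads near the stop codon and 0 D of 596 far from it, which allows up to 0.503%. Atxn7l3, of the SAGA complex, had 646 B and 715 D near and 0 D of 248 far (up to 1.21%). Psmd9, a proteasome assembly factor, had 0 D of 484 near (up to 0.620%) and 75 B and 74 D far, and H2-DMb1 had 0 D of 241 near (up to 1.24%) and 55 B and 153 D far. The change was thus between a stretch with reads of both alleles and a stretch with B reads only.

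The gene lists held few 3'UTR SNPs. Of 26 adipocyte lipid genes, 7 had 3'UTR reads, and 1 was called with D higher (Acaca) and 1 with D lower (Lpin1, -0.95 ± 0.21, adjusted p = 0.00481), against 4.15% and 9.41% of all genes, with a median log2 ratio of 0.06 against -0.01 over all genes. Lep, the hormone leptin, had 49.3% D in 26352 reads, and Mgll, monoglyceride lipase, 59.7% (0.67 ± 0.23, adjusted p = 0.0752). With the block 4 of the 7 were called, Lpl and Mgll (adjusted p = 1.18e-21) being the others. Against coding, 1 of 5 (Acaca) was called, beside 8.81% of all genes, and 3 with the block. Without single-allele SNPs Acaca could not be fitted, and 0 of the other 4 were called, beside 5.27% of all genes, and 2 with the block. Of 19 genes of 3' end processing, 3 (Cpsf2, Pcf11 and Clp1) had 3'UTR reads and none was called in the 3'UTR or against coding. Of 26 genes of RNA-binding and miRNA effector proteins, 10 had reads and none was called in the 3'UTR (2 with the block, Eif2c2 and Zfp36l2), with a median of -0.02, and 1 of 7 (Eif2c2) was called against coding in both fits.

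The excess of B reads at 3'UTR and coding SNPs was compared over pools. There were 1.10, 1.08, 1.09 and 1.08 B reads per D read in the 3'UTR and 1.15, 1.14, 1.23 and 1.15 in coding sequence. The mean difference of log2 ratios, 3'UTR minus coding, was -0.105 (SD 0.0533, n = 4), below zero in all 4 pools. The exact two-sided sign-flip permutation test gave p = 0.13, the smallest that 4 pools allow. It rested on Car3. Without that gene the mean was -0.00300 (SD 0.0111, n = 4, exact permutation p = 0.625). The single Car3 coding SNP (chr3:14870113, synonymous) had 56.5%, 57.3%, 18.9% and 59.7% D, the low value in the library labelled BxD male (59666 B and 13868 D reads), while the Car3 3'UTR had 55.6% D in that library.

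**Figure D5:**
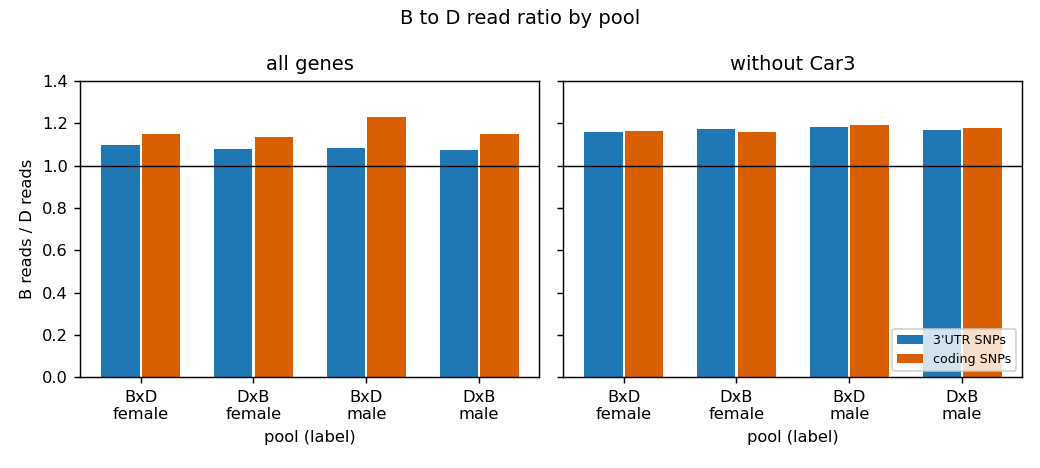
Ratio of summed B reads to summed D reads at 3'UTR and coding SNPs of each pool, for all genes (left) and without Car3 (right). Coding bars are the taller in all 4 pools on the left, with 1.23 in the library labelled BxD male, and the bars are nearly level on the right, with 1.16 to 1.18 in the 3'UTR and 1.16 to 1.19 in coding sequence.

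Tests of sex and of parent used the labels as given, which for 2 libraries go against their X reads. The interaction of allele and sex called 2 of 4220 genes (0.0474%), or 3 with the block (0.0711%, adding H2-Q10), and the test of maternal against paternal allele called 0, with 28 genes at an unadjusted p under 0.05 in edgeR and 0 calls and 7 such genes in DESeq2. If the file names are right, the labels give 2 of the 4 pools the wrong mother. A parental difference then cancels over the pools, so the labelled test could not call an imprinted gene. Snurf had a parental log2 ratio of -0.26 in it. The parental fit also held no term for strain, so strain differences added to its spread. The 2 genes called for sex were Plagl1 and Snurf, both known imprinted genes, which are expressed from the paternal copy. Plagl1 had 487 B and 566 D reads in BxD female, 603 and 714 in the library labelled DxB female, 394 and 13 in the library labelled BxD male and 195 and 0 in DxB male (interaction -5.70 ± 0.64, adjusted p = 0.000554). Snurf had 0 and 4, 1 and 7, 26 and 0, and 30 and 0 (adjusted p = 0.0145). With the labels of the 2 samples exchanged, as their file names have them, no gene was called for sex, so both calls rest on the labels that the X reads go against. The values of both genes were then 0.46 (adjusted p = 0.99995), and Snurf had the smallest p of the parental test (0.000619), which did not pass after adjustment. Plagl1 had a parental log2 ratio of -0.91 ± 1.21 in that test (unadjusted p = 0.472). Its 487 B and 566 D reads in BxD female came from both copies, not from the paternal D copy alone.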

How the data were processed

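For each of 4 pools the authors deposited raw counts of reads carrying the B and the D base at each SNP, without normalization. Per the methods, they treated mates as single 50 bp reads, aligned them to mm9 with mrsFAST (at most 3 mismatches, D variants masked), gave the remaining reads to TopHat, and kept unique alignments. The library was poly(A)-selected, primed with random hexamers and not stranded. Versions of these tools are not given in the sources used here, nor is the meaning of a mark (NOOKAY) on 461 of the SNPs.

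Here the files were joined by position, bases and gene. Of SNPs in an exon within 18 bp of each other the first was counted, which left 15323 3'UTR and 22911 coding SNPs, summed per gene. Because of mates and PCR copies, intervals and limits cover counting error only. The pools of 4 groups were treated as replicates, each giving a B and a D library. Tests used edgeR 4.0.16 in R 4.3.3 (TMM within each SNP class, quasi-likelihood, Benjamini-Hochberg over all features tested, threshold 0.05) without a block, as in the study. Both alleles of a pool come from 1 library and deviated together (correlation 0.496 to 0.672 over 2021 genes). Counts with the pool as a block are therefore printed beside the main counts of calls. Alternatives were DESeq2 1.42.0, 1 library size per pool, other SNP spacing, removal of single-allele SNPs, other count minimums, each pool left out and exchanged labels. Removal of the marked SNPs, of Car3 and of the 5 genes with most 3'UTR reads was added after the data were seen.

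Named genes were, by rule, the 8 largest and 8 smallest differences of 3'UTR and coding ratio (past the threshold in both fits, same sign in 4 pools, at least 50 reads a class), the 6 largest and smallest 3'UTR ratios (same sign in 4 pools, at least 10 reads and 1% from the weaker allele), the 5 genes with most reads, the 4 largest changes along the 3'UTR and, for each motif, the 6 SNPs with most reads. The values of 1 gene are not reported here. Others are said to be chosen after their values were seen. The SNPs, gene lists and tests were chosen with earlier results of these data known. Stop codons and 3'UTRs came from GENCODE M1, and 16762 SNPs had a gene strand. On simulated counts with 200 changed genes, the 3'UTR strain test recovered 96.7% of those changed by 1 log2 unit (4143 genes, 7 false calls) and the test against coding 80.6% (2418 genes, 9 false calls). The changed genes were drawn from deeply read genes only. All genes were given the same spread, and the B and D libraries of a pool were drawn independently. These shares therefore do not give the power of the tests for the genes measured here.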

Additional observations from a re-analysis of the deposited data

Results flagged for a closer look

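Of 54 groups of 4 pool values checked, 6 had a pool standing apart from the other 3 by Dixon's criterion, and chance alone sets about 1 in 20 apart. The log2 ratio of B to D reads at coding SNPs was 0.301 in the library labelled BxD male against 0.185 to 0.201 in the other pools, and 0.159 against 0.0517 to 0.0665 at SNPs with at least 1% of reads from each allele. The Car3 coding SNP described above is in both sums. The D share of the Dusp10 3'UTR was 6.67% in the library labelled DxB female and 0% elsewhere, a difference of 1 read. The gene 5730596K20Rik had 48.9% in the library labelled DxB female against 51.6% to 52.0%. Ctdsp1 had 2.37% in DxB male against 0.899% to 1.01%. Hddc3 had 88.8% in BxD female against 84.3% to 84.7%.

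The effect of allele differed between the labelled sexes for Plagl1 (interaction of -5.70) and Snurf (interaction of -11.19), by the interaction test. Snurf rests on 68 reads, with groups at or near 0, so its size depends on the count added by the fit. Both values depend on the labels of 2 samples whose file names and X reads give the other sex.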

How the results depend on the processing

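Calls of whole tests moved most with the pool as a block (pairing of B and D libraries), which gave 1189 genes for the 3'UTR, 1747 for coding, 472 and 356 for 3'UTR against coding with and without single-allele SNPs, 302 for far against near and 3828 single SNPs in place of 2298. The block changed no call count of the parental test, and it gave 3 genes for strain by sex. Removal of SNPs with under 1% of reads from an allele gave 340, 479, 121 and 1501 for the first 3 tests and the single SNPs, and 0 for strain by sex. At least 100 reads per SNP left 1529 SNPs called, since fewer were tested. The strain by sex count of 2 became 1 with DESeq2, 0 with at least 10 reads per gene and 0 with exchanged labels. Without each pool in turn the counts ranged from 416 to 478 (3'UTR), 714 to 821 (coding), 156 to 176 and 73 to 83 (3'UTR against coding, with and without single-allele SNPs), 91 to 105 (far against near), 1648 to 1803 (SNPs) and 1 to 2 (strain by sex), with fewer samples in each fit. In the last, a sex was left with 1 pool, which is assumed to vary like the others. The mean log2 ratio of 3'UTR minus coding was -0.118 to -0.0795 without a pool, -0.0306 at SNPs with both alleles and -0.00300 without Car3. Signs turned for Zfp106 (2.65) and Atxn7l3 (0.12) without single-allele SNPs, and for Plagl1 (0.46) and Snurf (0.46) with exchanged labels, and the causes were not tested. Of the values of named genes and SNPs under the alternatives, 987 kept the side of the threshold, 76 lost the call and 11 gained it. A further 4 were called in the main fit and turned sign. Signs of values not called in the main fit were not compared. Depth limits the rest: the median 3'UTR SNP had 61 reads over 4 pools.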
